A study of Mus musculus with 128 samples.

Results

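Rfx5 and 9 of its partners and targets in the major histocompatibility complex (MHC) class II pathway were followed through the brains of 3 mouse models of Down syndrome. The 10 genes were chosen by name, out of 21225 probe sets on the array, because Rfx5 was lower in the embryonic forebrain of both Ts1Cje and Ts65Dn mice, and because H2-DMa was higher in Ts65Dn forebrain. Those 3 values therefore selected the set, and they are given as a description without a P value. The question was whether a lower Rfx5 level went with the levels of its partners and targets. Ts1Cje, Ts65Dn and Dp16 mice carry an extra copy of overlapping parts of mouse chromosome 16, and each was compared with euploid littermates. Ts65Dn mice also carry extra centromeric genes of chromosome 17, and Ts1Cje mice are monosomic for a few genes of chromosome 12.

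The forebrain at embryonic day 15.5 came from 5 trisomic and 5 euploid Ts1Cje embryos, 6 trisomic and 7 euploid Ts65Dn embryos, and 6 trisomic and 6 euploid Dp16 embryos of both sexes. The labels give 1 more Ts65Dn array in each genotype than the design text counts, and all were used. Cortex, hippocampus and cerebellum came from 5 trisomic and 5 euploid males of each model at 6 to 7 months, and the same 30 animals gave all 3 regions. Ts1Cje and Dp16 males were bred to females of C57BL/6J or, by the methods, C57BL/6N, while Ts65Dn females on a mixed background were bred to B6EiC3Sn.BLiAF1 males, so that the MHC haplotype can vary within the Ts65Dn colony, and its part in the Ts65Dn values was not tested. No animal received a treatment. Values are log2 signals of Affymetrix Mouse Gene 1.0 ST arrays, and a difference of log2 signals is called a log2 change.

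All 10 genes lie outside the triplicated segments and are present in 2 copies in every model. On GRCm38.p6, Rfx5 lies on chromosome 3 (94950689 to 94961561), as does Rfxap (54803115 to 54807791), and Rfxank lies on chromosome 8 (70130806 to 70139197). Ciita lies on chromosome 16 (10480014 to 10531064), the chromosome that is partly triplicated, and Cd74 lies on chromosome 18 (60803849 to 60812652). The other 5 genes lie in the MHC on chromosome 17, with H2-DMa at 34119693 to 34139101, H2-DMb1 at 34153191 to 34160229, H2-Ab1 at 34263227 to 34269418, H2-Aa at 34282744 to 34287823 and H2-Eb1 at 34305867 to 34316674.

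MHC class II molecules present peptides from taken-up proteins to CD4 T cells. RFX5, RFXANK and RFXAP form the RFX complex, which sits on the X box of class II promoters beside NF-Y on the Y box, and the coactivator CIITA is recruited to this platform and sets when the genes are on. H2-Aa with H2-Ab1 builds a surface molecule, as does the H2-Eb1 chain with H2-Ea in haplotypes that make H2-Ea. CD74 (the invariant chain) guards and escorts these molecules, and H2-DMa with H2-DMb1 exchanges the last piece of CD74 for a peptide. In humans, loss of any of the 4 regulators causes the bare lymphocyte syndrome. In the brain, class II genes are expressed mainly by border macrophages, dendritic cells and activated microglia, whereas the RFX subunits are transcribed in many cell types.

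The promoters were searched for the letters of the X and Y boxes. A sequence from RefSeq (build GRCm38.p6, 250 bases before to 50 bases after the transcription start) was matched for 6 of the 10 genes. Both strands were searched for an X box core, ACNGAT, and a Y box core, ATTGG, and a pair was an X core followed on the same strand by a Y core after 10 to 25 bases. The X core occurred in 25.8% of 32851 promoters, the Y core in 37.4% and the pair in 0.39%. The pair was present in H2-Eb1, with 23 bases between the cores, and in H2-DMb1, with 24. Outside the 10 genes, it was also present in the class I gene H2-D1, with 24 bases between, and in the class II genes H2-Eb2 (23) and H2-DMb2 (24). The promoters of H2-K1, B2m, H2-Oa and H2-Ob held no pair. H2-Aa held a Y core at position -48 but no X core in the searched spacing, and Rfx5 and Rfxank held Y cores without an X core. A match is a description of the letters and not a measured binding site. In the following sequences, shown because they hold these letters in genes whose levels are given here, capitals mark the cores of a pair, or the Y core in H2-Aa. H2-Eb1, H2-Aa and H2-D1 each held 1 further match, on the other strand, which is left in lower case.
H2-Eb1 (chr17:34305617-34305916, plus strand): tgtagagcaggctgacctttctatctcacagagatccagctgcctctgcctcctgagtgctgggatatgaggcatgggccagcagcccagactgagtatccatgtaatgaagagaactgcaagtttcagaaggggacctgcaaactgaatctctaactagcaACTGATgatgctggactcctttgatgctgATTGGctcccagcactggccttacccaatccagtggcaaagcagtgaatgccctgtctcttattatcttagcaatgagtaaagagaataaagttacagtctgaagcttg
H2-DMb1 (chr17:34152941-34153240, plus strand): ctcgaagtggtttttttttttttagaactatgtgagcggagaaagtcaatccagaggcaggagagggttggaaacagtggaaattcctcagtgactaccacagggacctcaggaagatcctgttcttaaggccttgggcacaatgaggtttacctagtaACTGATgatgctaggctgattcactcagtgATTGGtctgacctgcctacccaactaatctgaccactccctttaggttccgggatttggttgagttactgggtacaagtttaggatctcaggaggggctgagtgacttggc
H2-Aa (chr17:34287774-34288073, minus strand): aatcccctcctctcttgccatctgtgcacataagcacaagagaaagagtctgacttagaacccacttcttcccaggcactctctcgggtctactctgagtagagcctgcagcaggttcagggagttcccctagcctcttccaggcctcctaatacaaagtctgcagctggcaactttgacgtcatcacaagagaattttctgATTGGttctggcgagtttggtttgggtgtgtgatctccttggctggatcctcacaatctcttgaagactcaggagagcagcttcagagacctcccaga
H2-D1 (chr17:35262844-35263143, plus strand): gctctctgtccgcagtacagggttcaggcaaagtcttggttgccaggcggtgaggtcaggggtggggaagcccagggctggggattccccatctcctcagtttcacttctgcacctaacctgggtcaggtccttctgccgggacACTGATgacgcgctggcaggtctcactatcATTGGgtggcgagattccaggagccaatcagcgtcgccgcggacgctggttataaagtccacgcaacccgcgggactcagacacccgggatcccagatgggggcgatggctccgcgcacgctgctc

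Some arrays stood apart before any comparison was made. In Dp16 forebrain, the first principal component of the deviations from the genotype means held 56.9% of the variance over all probe sets, and the Rfx5 deviation had a correlation of size 0.96 with it (12 animals). There, 47.2% of all probe sets had a correlation with Rfx5 beyond 0.7 in size, against 2.94% to 22.4% in the other 11 tables. Array medians spanned 7.39 to 7.48 in Dp16 forebrain, 7.24 to 7.29 in Ts65Dn forebrain and 8.52 to 8.55 in Ts1Cje forebrain, so that levels were not compared between embryonic models. In Ts65Dn hippocampus, medians spanned 6.45 to 6.56, and the Rfx5 deviation had a correlation of size 0.93 with the first component. The part of this variation in the results was not tested.

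Rfx5 was lower in trisomic than in euploid animals in E15.5 forebrain of all 3 models. In Ts1Cje forebrain, Rfx5 had a log2 signal of 8.43, 8.43, 8.48, 8.49 and 8.57 in trisomic animals, against 8.72, 8.77, 8.80, 8.81 and 8.88 in euploid animals. The groups did not overlap, and the log2 change was -0.32 (SE 0.042), a fold change (FC) of 0.80. In Ts65Dn forebrain, Rfx5 ran between 7.35 and 7.66 with a median of 7.58 in trisomic embryos, against 7.82 to 8.20 with a median of 8.03 in euploid embryos. Again the groups were apart, and the log2 change was -0.46 (SE 0.065, FC 0.73). Both differences chose the gene and carry no test. Of all probe sets, 0.259% were called below an FDR of 10% in Ts1Cje forebrain and 0.264% in Ts65Dn forebrain, with Rfx5 among them by the choice of the set.

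Dp16 forebrain gave none of the values named above as the choice. However, the paper had reported Rfx5 as lower there too, as in the other models, by array and by quantitative RT-PCR. There the gene ran between 7.08 and 7.79 with a median of 7.51 in trisomic embryos, against 7.52 to 8.23 with a median of 8.12 in euploid embryos. The ranges overlapped because 1 euploid embryo, labelled Eupm13, had 7.52, whereas the other 5 euploid embryos had 8.06 to 8.23. The log2 change of -0.59 (SE 0.15, FC 0.66) did not pass the joint adjustment. By limma the unadjusted P was 0.00157 and the adjusted P was 0.344, and 0.0895% of all probe sets were called. Without Eupm13 the log2 change was -0.70 (adjusted P = 0.0594), and with array weights it was -0.56 (adjusted P = 0.0453). Leaving out each of the 12 embryos in turn gave -0.70 to -0.52, and 11 of these fits did not call it. Eupm13 also stood apart in Rfxank, Ciita and Cd74, as given among the flagged values.

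**Figure D1:**
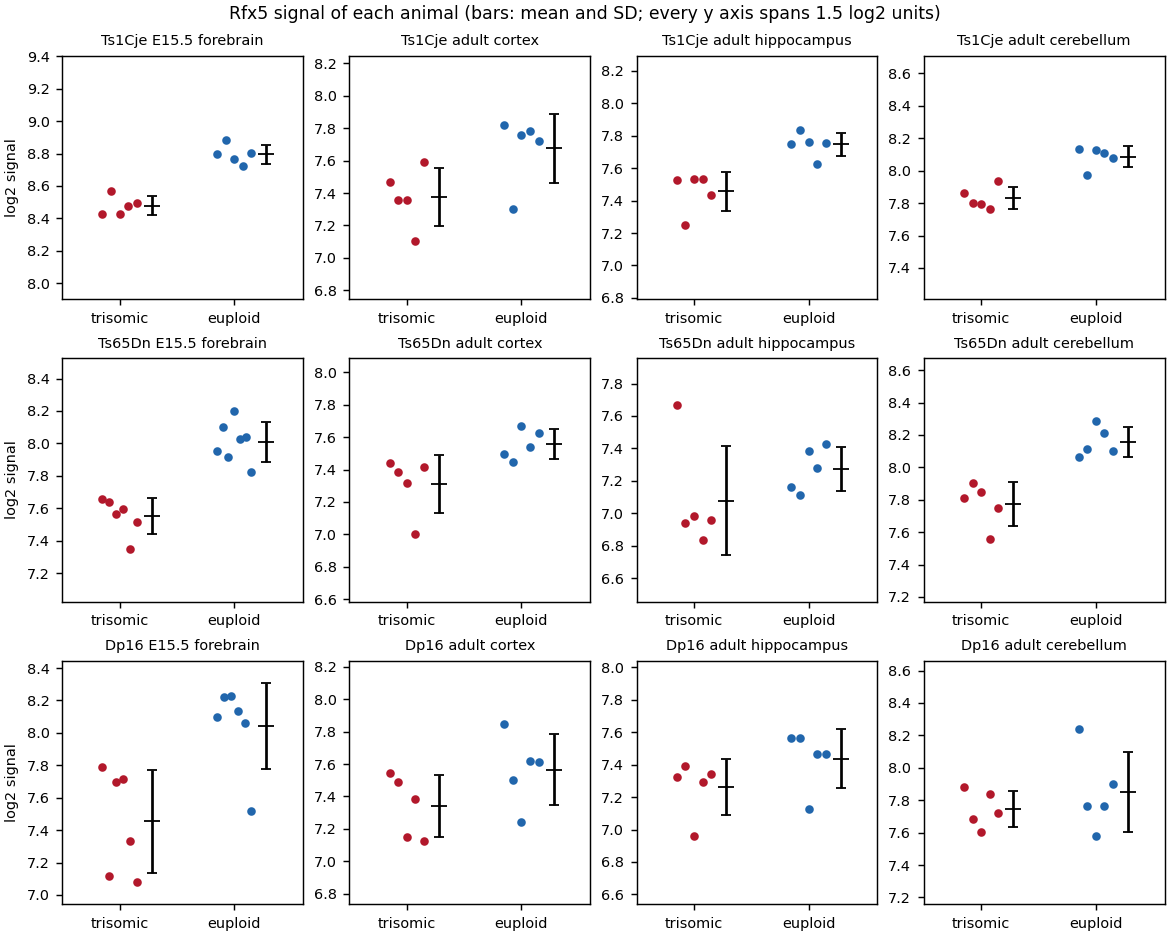
Log2 signal of Rfx5 in each animal of the 12 tables of 1 model and tissue, trisomic animals in red and euploid littermates in blue, with the mean and SD as bars beside each group. The trisomic mean lay below the euploid mean in every panel, and the groups were apart in the Ts1Cje and Ts65Dn forebrain and overlapped in the Dp16 forebrain.

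The lower Rfx5 level was also measured in adult males, whose arrays gave none of the values named above as the choice. The genes were chosen with earlier results of these data known, so the adult arrays are not shown to be an independent test. The paper had also measured Rfx5 by quantitative RT-PCR in adult cortex and hippocampus. In Ts1Cje cortex, Rfx5 had 7.10, 7.36, 7.36, 7.47 and 7.59 in trisomic animals, against 7.30, 7.72, 7.76, 7.78 and 7.82 in euploid animals. The groups overlapped through 1 low euploid animal (log2 change -0.30, SE 0.12). In Ts1Cje hippocampus, the values were 7.25, 7.43, 7.53, 7.54 and 7.54 in trisomic animals, against 7.63, 7.75, 7.76, 7.76 and 7.83 in euploid animals. In Ts1Cje cerebellum, they were 7.76, 7.80, 7.80, 7.86 and 7.93 in trisomic animals, against 7.98, 8.08, 8.11, 8.13 and 8.13 in euploid animals. In both of these regions every trisomic value lay below every euploid value, with a log2 change of -0.29 (SE 0.064, unadjusted P = 6.1e-04, adjusted P = 0.213) in hippocampus and -0.25 (SE 0.064, adjusted P = 0.321) in cerebellum.

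In Ts65Dn cortex, Rfx5 had 7.00, 7.32, 7.39, 7.41 and 7.44 in trisomic animals, against 7.45, 7.49, 7.54, 7.63 and 7.67 in euploid animals. The groups touched without overlapping, and the log2 change was -0.24 (SE 0.085). In Ts65Dn hippocampus, the values were 6.83, 6.94, 6.96, 6.98 and 7.67 in trisomic animals, against 7.11, 7.16, 7.28, 7.38 and 7.42 in euploid animals. Here 4 of 5 trisomic animals lay below every euploid animal and 1 trisomic animal, labelled TS18, lay above all of them. The log2 change in hippocampus was -0.20 (SE 0.15) and was -0.34 without TS18, with an adjusted P of 0.396. In Ts65Dn cerebellum, Rfx5 had 7.56, 7.75, 7.81, 7.85 and 7.90 in trisomic animals, against 8.07, 8.10, 8.11, 8.21 and 8.29 in euploid animals. The cerebellar groups were well apart, with a log2 change of -0.38 (SE 0.074, FC 0.77, unadjusted P = 1.9e-04) and an adjusted P of 0.101 by limma, just past the limit. Under 6 alternatives of processing it was within the limit, with an adjusted P of 0.0463 to 0.0815 and a log2 change between -0.40 and -0.34.

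In Dp16 cortex, Rfx5 had 7.13, 7.15, 7.39, 7.49 and 7.54 in trisomic animals, against 7.24, 7.50, 7.61, 7.62 and 7.85 in euploid animals. In Dp16 hippocampus, the values were 6.96, 7.29, 7.33, 7.34 and 7.39 in trisomic animals, against 7.12, 7.46, 7.47, 7.56 and 7.57 in euploid animals. In Dp16 cerebellum, they were 7.60, 7.69, 7.72, 7.84 and 7.88 in trisomic animals, against 7.58, 7.76, 7.77, 7.90 and 8.24 in euploid animals. The Dp16 groups overlapped in all 3 regions, with log2 changes of -0.22 (SE 0.12), -0.17 (SE 0.10) and -0.10 (SE 0.11). The euploid animal labelled Eup274 had the lowest euploid value in each of the regions.

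No single adult table called Rfx5. The share of all probe sets whose groups did not overlap was not counted in any table, those of the forebrain included. The shares of all probe sets called at an FDR below 10% were 0.0424%, 0.316% and 0.429% in Ts1Cje cortex, hippocampus and cerebellum, 0.349%, 0.132% and 0.297% in the same regions of Ts65Dn, and 0.00942%, 0.066% and 0.0188% in those of Dp16. Over the 10 tables that did not choose the gene, Rfx5 had an unadjusted P under 0.05 in 6, where 6.24% of all 254700 tests had one. The direction was the same in all 10. These tables share animals among the adult regions, so that they are not 10 independent comparisons. Under a looser rule, an unadjusted P under 0.05 with an FC above 1.2 or below 0.8, 1.56% of all tests passed, as did 6 values of the 10 genes, 2 of which had chosen a gene. The others were Rfx5 in Ts65Dn cerebellum and Dp16 forebrain, and Cd74 and H2-Aa in Dp16 cerebellum.

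Averaged over the 3 regions of each adult, with the animal as a block, the trisomic effect on Rfx5 was called in Ts1Cje and Ts65Dn males and not in Dp16 males. The block used 1 within-animal correlation for all genes, 0.061 in Ts1Cje, 0.077 in Ts65Dn and 0.069 in Dp16. For a gene whose regions share more than that within an animal, the SE and interval would be too small. For Rfx5, the Dp16 males Eup260 and Eup274 had the highest and the lowest euploid value in every region. Among trisomic Ts65Dn males, TS5 had the lowest value in every region. The SE and interval of Rfx5 are therefore likely too small in Dp16 and Ts65Dn. In Ts1Cje the log2 change was -0.28 (SE 0.052, 95% confidence interval -0.39 to -0.17, FC 0.82, adjusted P = 0.00281 by limma). In Ts65Dn it was -0.27 (SE 0.067, interval -0.41 to -0.14, FC 0.83, adjusted P = 0.0552). In Dp16 it was -0.17 (SE 0.069, interval -0.31 to -0.03, FC 0.89, unadjusted P = 0.0218, adjusted P = 0.427). These averages called 0.98%, 0.824% and 0.763% of all probe sets in Ts1Cje, Ts65Dn and Dp16 mice. The Ts65Dn call was lost on leaving out any 1 of 6 animals, the trisomic TS4, TS5 and TS9 and the euploid Eup6, Eup8 and Eup17 (adjusted P = 0.12 to 0.204). The Dp16 average without Eup274 was -0.24 (adjusted P = 0.0758). Leaving out each of the 10 Dp16 animals in turn gave -0.24 to -0.10, and 9 of these fits did not call it.

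The mean of the 3 regions per animal gave the same order without a model. In Ts1Cje the mean Rfx5 log2 signal was 7.47, 7.47, 7.56, 7.62 and 7.65 in trisomic males, against 7.70, 7.84, 7.85, 7.88 and 7.90 in euploid males (7.55 ± 0.084 in trisomic and 7.84 ± 0.077 in euploid males, SD, n = 5 each). The groups did not overlap, and the two-sided exact permutation test gave P = 0.00794, the smallest that 5 against 5 allows. In Ts65Dn the means were 7.13 to 7.64 in trisomic males, against 7.56 to 7.78 in euploid males, with 4 of 5 trisomic males below every euploid male (exact permutation P = 0.0238). In Dp16 they were 7.24 to 7.58 in trisomic males, against 7.32 to 7.88 in euploid males, and overlapped (exact permutation P = 0.159). The animal means thus did not tell the Dp16 genotypes apart, although the Dp16 interval of the fit lay below 0. With 3 tests, the Benjamini-Hochberg adjusted P values were 0.0238, 0.0357 and 0.159.

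The size of the adult effect on Rfx5 was not shown to differ between regions or models. Of 9 differences between regions, none was called for any of the 10 genes, and the lowest unadjusted P for Rfx5 was 0.216, for cerebellum minus hippocampus in Ts65Dn (-0.19, interval -0.49 to 0.12). Of 90 region differences of the 10 genes, 1 had an unadjusted P under 0.05 (Ciita in Ts65Dn, cerebellum minus cortex), and of 115 model differences, leaving out those built on a value that chose a gene, none was called and 3 had an unadjusted P under 0.05. Over all probe sets, 0.00628% of region differences and 0.0373% of model differences were called. Between models, the Rfx5 effect in cerebellum differed by -0.28 on the log2 scale, Ts65Dn minus Dp16 (interval of the difference -0.53 to -0.03, unadjusted P = 0.0283, adjusted P = 0.934 by limma). The other adult differences between models for Rfx5 ran from -0.15 to 0.13, each with an interval that held 0. In the forebrain, where 2 of the tables chose the gene, the effect in Ts1Cje was 0.14 less negative than in Ts65Dn and 0.27 less negative than in Dp16.

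The 5 measured genes on either side of Rfx5 on chromosome 3 were looked at in the same way. In the order of the chromosome these were Selenbp2, Cgn, Pogz, Psmb4 and Selenbp1 before Rfx5, and Pi4kb, Zfp687, Psmd4, Pip5k1a and Vps72 after it. None was called in any of the 12 tables, and 4 of their 120 tests had an unadjusted P under 0.05. Their median log2 change was -0.01, with 69 changes below 0 and 51 above, in a range of -0.34 to 0.63, both ends of it in Selenbp2. The median of Rfx5 over the 10 tables that did not choose it was -0.25.

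The partners of Rfx5 in the RFX complex and the coactivator were called in no table. Over the 36 tests of Rfxank, Rfxap and Ciita, none had an unadjusted P under 0.05 by limma, and the lowest adjusted P was 0.817. Rfxank, the ankyrin-repeat subunit, was lower in 7 of 12 tables and ran between -0.12 and 0.16. Rfxap, the third subunit, was lower in 9 and ran between -0.18 and 0.09. Ciita, the inducible master regulator, was lower in 8 and ran between -0.11 and 0.14.

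The intervals of the adult averages describe the changes of array signal that could have been missed, under the within-animal correlation given above. For a gene whose regions share more than that within an animal, they are too narrow to bound such a change. In Ts1Cje males, where Rfx5 fell by 0.28 on the log2 scale, the interval was -0.09 to 0.08 for Rfxank, -0.14 to 0.12 for Rfxap and -0.20 to 0.05 for Ciita. In Ts65Dn males, it was -0.16 to 0.14 for Rfxank, -0.18 to 0.02 for Rfxap and -0.07 to 0.12 for Ciita. In Ts1Cje, the interval of Rfx5 lay wholly below that of Rfxank and of Rfxap and overlapped that of Ciita. In Ts65Dn it lay below that of Ciita and overlapped those of Rfxank and Rfxap, and in Dp16 it overlapped all of them. The difference between Rfx5 and its partners was not tested. Per animal, Rfxank averaged 7.57 ± 0.040 in trisomic and 7.57 ± 0.053 in euploid Ts1Cje males, and Rfxap averaged 7.97 ± 0.068 in trisomic and 7.98 ± 0.15 in euploid males (SD, n = 5 each). Ciita averaged 4.65 ± 0.068 in trisomic and 4.73 ± 0.13 in euploid Ts1Cje males. Its signal was low, above 21.6% to 24.7% of all probe sets in the adult tables. How far a low signal narrows a change was not tested.

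**Figure D2:**
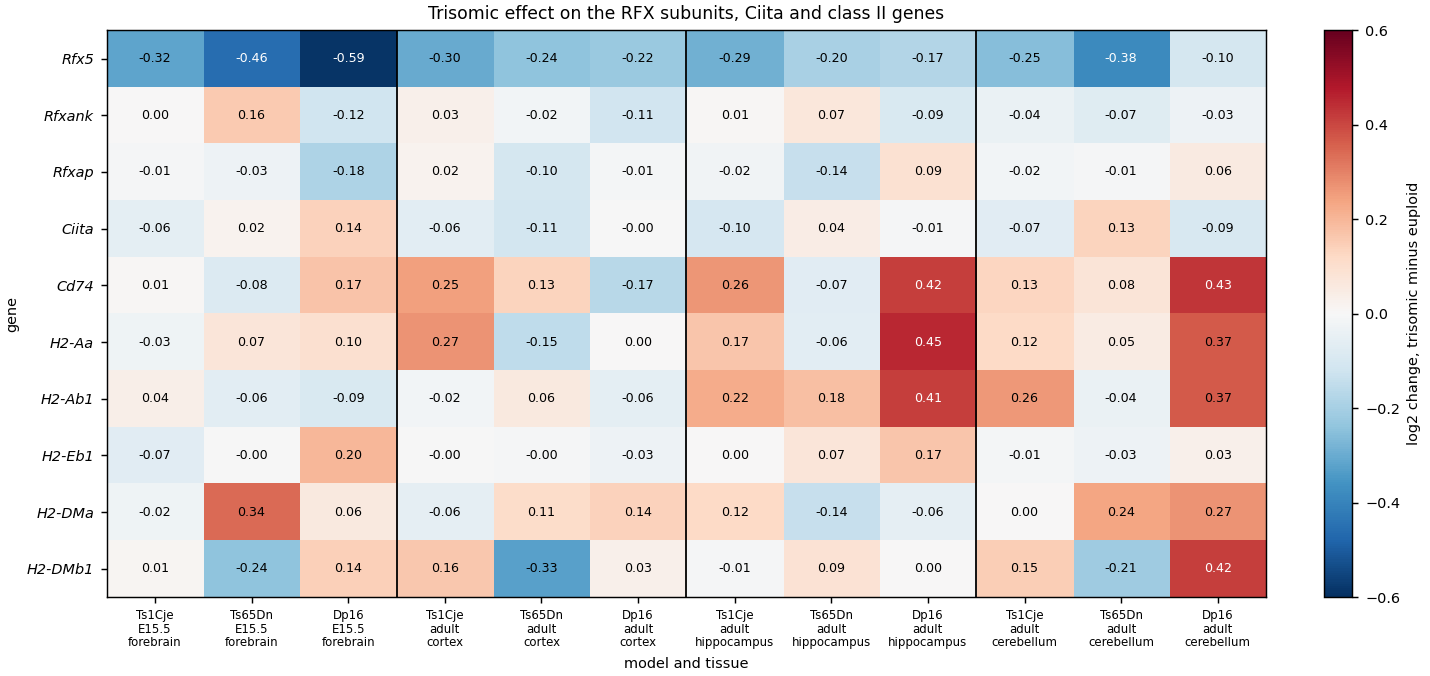
Log2 change, trisomic minus euploid, of the 10 genes (rows) in the 12 tables (columns, grouped by tissue with Ts1Cje, Ts65Dn and Dp16 in each group); blue is lower and red is higher in trisomic animals. The row of Rfx5 is below 0 throughout, from -0.59 to -0.10, and the other rows hold both signs.

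Neither Cd74 nor any class II gene of the set was called in any table, including those in which Rfx5 was lowest relative to euploid littermates. Leaving out H2-DMa in Ts65Dn forebrain, 26 of their 71 log2 changes were below 0, and 3 had an unadjusted P under 0.05 (4.23%, against 6.24% of all tests), all of them above 0. Cd74 and H2-Aa were each higher in 9 of 12 tables, H2-Ab1 in 7, H2-DMb1 in 8, H2-DMa in 8 with the table that chose it, and H2-Eb1 in 5. The median log2 change of the 6 genes ran from -0.03 in Ts65Dn forebrain to 0.37 in Dp16 cerebellum, beside medians of all probe sets between -0.02 and 0.03. These RNAs come from a whole region, and fewer cells of a type cannot be told apart from less RNA per cell.

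In E15.5 forebrain, leaving out the chosen value of H2-DMa, neither Cd74 nor any class II gene of the set had an unadjusted P under 0.05. Outside the set, H2-Eb2 was higher in Ts65Dn forebrain (log2 change 0.14, unadjusted P = 0.011, adjusted P = 0.664 by limma). H2-DMb2 was higher in Dp16 forebrain (0.37, unadjusted P = 0.0493, adjusted P = 0.799). Several signals of the set were low in forebrain. H2-Aa lay above 10.9% to 11.3% of all probe sets, H2-DMb1 above 17.7% to 22%, H2-Ab1 above 17.8% to 26% and Cd74 above 19.6% to 20.9%. H2-DMa (31.6% to 49.5%) and H2-Eb1 (38.7% to 44%) lay higher. How far a low signal narrows a change was not tested. In Ts1Cje forebrain, Cd74 had 6.72, 6.76, 6.79, 6.82 and 6.87 in trisomic animals, against 6.72, 6.74, 6.82, 6.82 and 6.84 in euploid animals. The groups covered the same range, with a log2 change of 0.01 (interval -0.08 to 0.10). The other 5 ran between -0.07 for H2-Eb1 and 0.04 for H2-Ab1. In Ts65Dn forebrain, Cd74 differed by -0.08 (SE 0.0535), H2-Aa by 0.07 (SE 0.064), H2-Ab1 by -0.06 (SE 0.059), H2-Eb1 by -0.002 (SE 0.087) and H2-DMb1 by -0.24 (SE 0.16), none of them called. H2-DMa, which was chosen on this value, averaged 6.57 ± 0.25 in 6 trisomic and 6.23 ± 0.12 in 7 euploid Ts65Dn embryos (SD), a log2 change of 0.34 (SE 0.097, FC 1.27). Its trisomic range of 6.30 to 7.01 overlapped the euploid range of 6.08 to 6.43. In the tables that did not choose it, H2-DMa differed by -0.02 in Ts1Cje forebrain, 0.06 in Dp16 forebrain and between -0.14 and 0.27 in adult regions.

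The largest log2 changes of Cd74, H2-Aa and H2-Ab1 over the 12 tables were measured in adult Dp16 males. In Dp16 cerebellum, Cd74 had 6.22, 6.44, 6.59, 6.61 and 6.76 in trisomic animals, against 5.73, 5.92, 6.13, 6.21 and 6.49 in euploid animals. The groups overlapped, since Eup274 lay within the trisomic range (log2 change 0.43, SE 0.14, FC 1.34, unadjusted P = 0.00788, adjusted P = 0.616 by limma). H2-Aa in the same region had 5.63, 5.70, 5.78, 5.90 and 6.23 in trisomic animals, against 5.06, 5.38, 5.41, 5.56 and 6.00 in euploid animals. It also overlapped through Eup274 (log2 change 0.37, SE 0.16, adjusted P = 0.777). H2-Ab1 differed by 0.37 (SE 0.19), H2-DMb1 by 0.42 (SE 0.26), H2-DMa by 0.27 (SE 0.18) and H2-Eb1 by 0.03 (SE 0.080), so that all 6 were above 0 and none was called.

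In Dp16 hippocampus, Cd74 had 5.84, 6.60, 7.25, 7.48 and 7.50 in trisomic animals, against 6.11, 6.31, 6.60, 6.75 and 6.80 in euploid animals. Here 3 trisomic males were above every euploid male and 1 was below all of them, so that the log2 change of 0.42 had an SE of 0.28. The same animal was the lowest trisomic male in H2-Aa (5.36) and H2-Ab1 (5.67), whose log2 changes were 0.45 (SE 0.24) and 0.41 (SE 0.20). In Dp16 cortex, the changes of the 3 genes were -0.17 (SE 0.23), 0.004 (SE 0.14) and -0.06 (SE 0.066). Averaged over the regions, H2-Aa differed by 0.27 (SE 0.13, unadjusted P = 0.0393, adjusted P = 0.501) and H2-Ab1 by 0.24 (SE 0.11, unadjusted P = 0.0391, adjusted P = 0.499), in a family in which 9.38% of tests had an unadjusted P under 0.05.

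**Figure D3:**
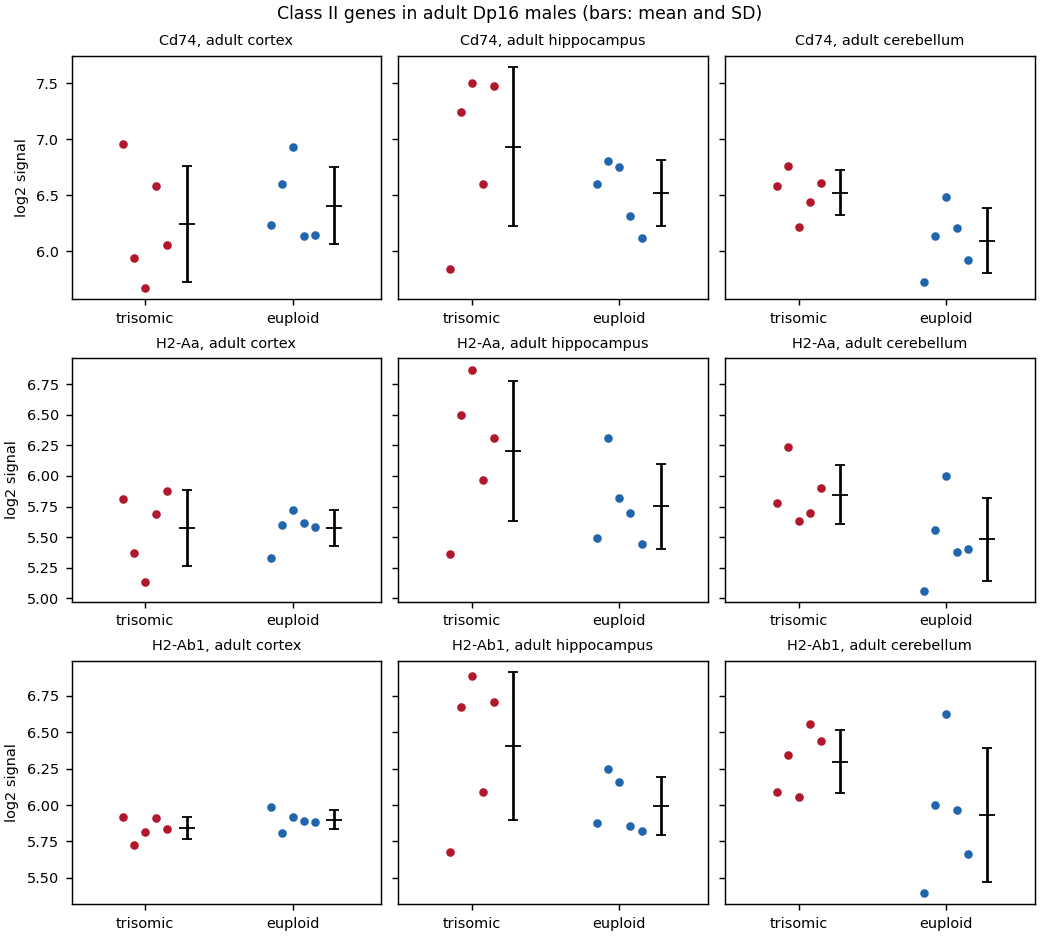
Log2 signal of Cd74, H2-Aa and H2-Ab1 in the 3 brain regions of adult Dp16 males, trisomic animals in red and euploid littermates in blue, with the mean and SD as bars beside each group. In hippocampus 1 trisomic male had the lowest value of its group in all 3 genes, and in every panel the groups overlapped.

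In Ts1Cje cerebellum, H2-Ab1 had 6.18, 6.18, 6.19, 6.23 and 6.32 in trisomic animals, against 5.61, 5.97, 6.02, 6.06 and 6.12 in euploid animals. All trisomic values were above all euploid values, by a narrow margin, and the log2 change was 0.26 (SE 0.090, unadjusted P = 0.0108, adjusted P = 0.662). Among the genes of the set other than Rfx5, this was the only table with groups apart. How often groups were apart over all probe sets was not counted. The dimer partner of H2-Ab1, H2-Aa, differed by 0.12 (SE 0.14) in Ts1Cje cerebellum, and Cd74 by 0.13 (SE 0.12). In Ts65Dn adults, where Rfx5 was lower, the average log2 change was 0.05 for Cd74 (interval -0.16 to 0.25), -0.06 for H2-Aa (interval -0.30 to 0.19) and 0.07 for H2-Ab1 (interval -0.14 to 0.27). For H2-DMb1, whose SD within a group reached 0.86, the interval of the Ts65Dn average ran from -0.47 to 0.17. H2-DMb1 and its neighbor H2-DMb2 are close copies, and the probes may not tell their RNAs apart.

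**Figure D4:**
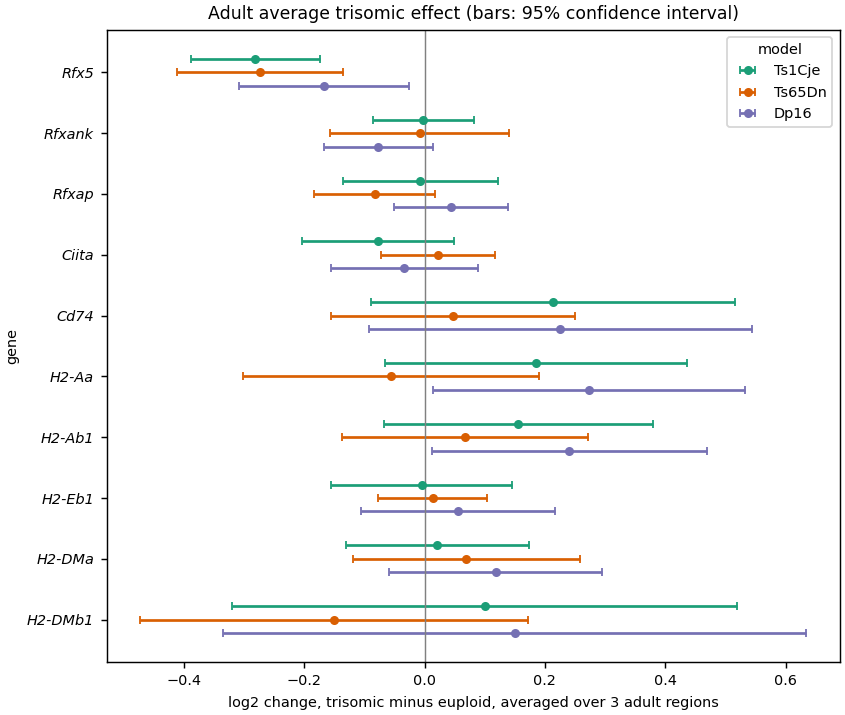
Log2 change, trisomic minus euploid, averaged over cortex, hippocampus and cerebellum, for the 10 genes in Ts1Cje, Ts65Dn and Dp16 males (points, with 95% confidence intervals as bars; 5 trisomic and 5 euploid animals per model). The Rfx5 intervals lie below 0 in all 3 models, and those of Cd74 and the class II genes hold 0 or lie above it.

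Across animals of 1 table, Rfx5 was set against each of the other 9 genes as deviations from the genotype mean, in each of the 12 tables. Pearson's r was above 0 in 50 and below 0 in 58, with a median of -0.07. By a permutation test with 100000 resamples, 22 had P under 0.05 and 7 had an adjusted P under 0.1 over all these relations. Spearman's rho gave 5 at that limit, 1 of them Rfxap in Ts65Dn cerebellum (rho = 0.94, adjusted permutation P = 0.0181, r = 0.76). Of the 7, 5 came from Dp16 forebrain and the other 2 from Ts1Cje cerebellum.

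In Dp16 forebrain (12 animals), Rfx5 went with Rfxap (r = 0.86, adjusted permutation P = 0.013; rho = 0.86, P = 6.7e-04, adjusted P = 0.0181) and with Rfxank (r = 0.83, adjusted permutation P = 0.0277; rho = 0.62, P = 0.0377, adjusted P = 0.37). It went against Ciita (r = -0.90, adjusted permutation P = 0.00594; rho = -0.87), H2-Eb1 (r = -0.92, adjusted permutation P = 0.00324; rho = -0.86) and H2-Aa (r = -0.76, adjusted permutation P = 0.0872; rho = -0.78, adjusted P = 0.094). Without the 2 embryos farthest from the Rfx5 median, r was 0.83 for Rfxap, 0.54 for Rfxank, -0.82 for Ciita, -0.83 for H2-Eb1 and -0.54 for H2-Aa. Over all animals of Dp16 forebrain, 47.2% of all probe sets passed 0.7 in size, as did 5 of the 9 genes, and the part of the shared array component was not tested. In Ts1Cje cerebellum (10 animals), r was 0.88 for Rfxap (rho = 0.82, without the 2 farthest 0.66) and -0.88 for Ciita (rho = -0.81, without the 2 farthest -0.76), each with an adjusted permutation P of 0.0186. For Spearman's rho the adjusted P was 0.102 for each. There, 17.6% of all probe sets passed 0.7 in size, as did these 2 of the 9 genes, and Rfx5 had a correlation of size 0.83 with the first component.

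No gene had r of the same sign in all 12 tables. Rfxap had r above 0 in 9 of 12 tables, with a median of 0.38, and Ciita had r below 0 in 9, with a median of -0.37. Cd74 had r above 0 in 6 and below 0 in 6, with a median of -0.07, and no relation of Cd74 passed the adjustment. H2-DMa had r below 0 in 8 tables and H2-Ab1 above 0 in 8, without a relation that passed.

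**Figure D5:**
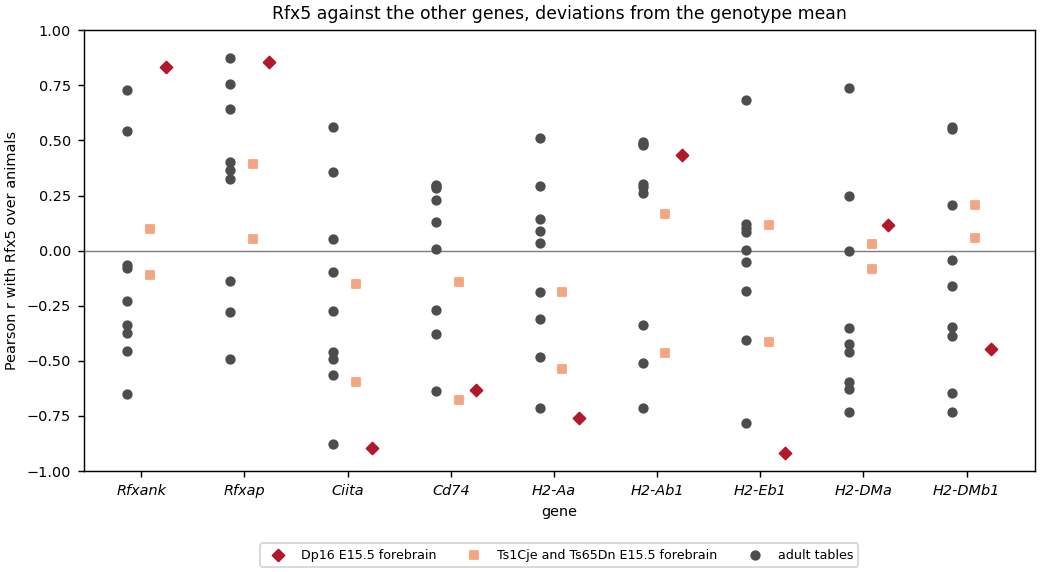
Pearson's r of Rfx5 with each of the other 9 genes over the animals of 1 table, as deviations from the genotype mean (12 points per gene: Dp16 forebrain as diamonds, the other 2 forebrain tables as squares, 9 adult tables as circles). The points of every gene lie on both sides of 0, and the diamonds are at or near the edge of the range for Rfxank, Rfxap, Ciita, H2-Aa and H2-Eb1.

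Among themselves, Cd74, H2-Aa and H2-Ab1 had the highest r of the targets in the adult brain. Over 90 adult values of 30 animals, as deviations from the group means, r was 0.78 between Cd74 and H2-Aa, 0.71 between Cd74 and H2-Ab1 and 0.74 between H2-Aa and H2-Ab1. With H2-Eb1, r was 0.42 for Cd74, 0.52 for H2-Aa and 0.44 for H2-Ab1. With these 4 genes H2-DMa had r of 0.20 to 0.37, and H2-DMb1 had r of -0.04 to 0.09 with the other 5 targets. In adults, Rfx5 had r between -0.32 (H2-DMa) and 0.27 (Rfxap) with the other 9, and 0.01 with Cd74. In the 35 embryos, Rfx5 had r between -0.79 (Ciita) and 0.69 (Rfxap), with -0.63 for H2-Aa, -0.61 for H2-Eb1 and -0.56 for Cd74. These include the 12 embryos of Dp16 forebrain, whose shared component was given above. Among the embryonic targets, r between Cd74 and H2-Aa was 0.55 and that between H2-Aa and H2-Ab1 was -0.21. The 3 regions of an animal and the arrays of a table share a source, and these r are given as a description.

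The genes most like Cd74 over the 90 adult values, apart from the set itself, were Slc38a3 (r = 0.73), Ifitm3 (0.71), Gpr182 (0.70), Fxyd5 (0.69) and Bgn (0.69). Ifitm3 is an interferon-induced membrane protein gene and Bgn encodes biglycan, an extracellular matrix proteoglycan. Those most like Rfx5 in adults were Kcnab3 (0.60), Kcnj10 (0.59), Nova1 (0.59), Frmd3 (0.58) and Stx17 (0.57), of which Kcnj10 encodes a glial potassium channel and Nova1 a neuronal splicing factor. Over the 35 embryonic values they were Mir494 (0.90), Slc38a10 (0.90), Tsc22d1 (0.89), Rdh11 (0.89) and St3gal5 (0.89). The 2 lists for Rfx5 shared no gene.

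The wider pathway was described from lists of genes. Of 10 measured RFX family and enhanceosome genes (other RFX factors, Creb1 and NF-Y subunits), none was called in any table, and the median log2 change ran from -0.07 to 0.06. Of 5 other class II genes, none was called (medians -0.10 to 0.20). H2-DMb2 had a log2 change of 0.23 in Ts1Cje hippocampus (unadjusted P = 0.00412, adjusted P = 0.51), and H2-Ea, which the b haplotype of C57BL/6 does not express as protein, had one of 0.28 in Ts65Dn cerebellum (unadjusted P = 0.00416, adjusted P = 0.512). Of 7 genes of peptide supply, Ctss, the protease that trims CD74, was called in Ts1Cje cerebellum (log2 change 0.52, SE 0.088, adjusted P = 0.0262), and no other was called in any table.

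In the path from the interferon gamma receptor to Ciita, Ifngr2, the receptor chain gene that is itself triplicated in all 3 models, was called higher in 6 of 12 tables, with a log2 change of 0.50 (SE 0.050, adjusted P = 0.00169) in Ts65Dn cortex. The 4 genes listed for RFX-dependent class I expression (H2-K1, H2-D1, B2m and the regulator gene Nlrc5) were called in no table. Their median ran from -0.19 to 0.37 and was above 0 in 10 of 12 tables. B2m, the class I light chain gene, differed by 0.42 in Dp16 hippocampus (unadjusted P = 3.1e-04, adjusted P = 0.14), and H2-K1 by 0.45 (adjusted P = 0.249). There, H2-D1 differed by 0.30 and Nlrc5 by -0.03.

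Markers of the cells that carry class II molecules were set beside these values. In Ts1Cje cerebellum, all 10 microglial markers were above 0 (median 0.11, none called, Itgam 0.41 with an adjusted P of 0.208), and their mean level was 7.36 to 7.59 in trisomic males, against 7.27 to 7.42 in euploid males. In Dp16 cerebellum, all 10 were above 0 as well (median 0.10, mean level 7.40 to 7.53 in trisomic males, against 7.22 to 7.63 in euploid males). In Dp16 hippocampus, 6 of 10 were above 0 (median 0.006, mean level 8.05 to 8.27 in trisomic males, against 8.08 to 8.19 in euploid males). The 10 border macrophage and dendritic cell markers had a median of -0.08 in Dp16 cerebellum and -0.01 in Dp16 hippocampus. The 7 meningeal and choroid plexus markers had a median of 0.34 in Dp16 cerebellum, with a mean level of 8.17 to 8.32 in trisomic males, against 6.82 to 8.49 in euploid males. Of the meningeal genes, Dcn was called in Ts1Cje cerebellum (log2 change 0.50, adjusted P = 0.00474), where 6 of the 7 were below 0. The part of these cells in the class II values was not tested.

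In forebrain, where Rfx5 was lower in all 3 models, the 4 neuronal markers had a median of 0.03 in Ts1Cje, -0.10 in Ts65Dn and -0.02 in Dp16, and none was called. Of the 10 microglial markers, 8 were below 0 in Ts1Cje forebrain (median -0.045), 9 in Ts65Dn (-0.084) and 6 in Dp16 (-0.052), none called. The 6 B cell and 4 T cell markers were called in no table, with medians between -0.11 and 0.15 for B cells and between -0.09 and 0.15 for T cells. The part of these cells in the Rfx5 values was not tested.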

How the data were processed

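RNA of E15.5 forebrain and adult cortex, hippocampus and cerebellum was hybridized to 128 Affymetrix Mouse Gene 1.0 ST arrays of 65 mice. The authors deposited log2 signals, made by robust multichip average (RMA, named in the submitters' processing notes) with the MBNI custom CDF version 15, which gives 1 probe set per Entrez Gene ID. Which arrays were normalized together is not given in the sources used here. The number of animals limits the precision. Of 21225 probe sets, 20768 were named through their Entrez Gene ID, and 457 were not.

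The 3 technical repeat arrays were averaged with the first array of their animal. Groups were taken from the sample titles. Each table of 1 model and tissue was fitted with limma 3.58.1 in R 4.3.3, and 254700 P values were adjusted together by the Benjamini-Hochberg method, with genes called below an FDR of 10%. The methods name a Student t-test, which was run as an alternative. Adult regions were also fitted together with the animal as a random block, and P values were adjusted over 3 averages, 9 region differences and 12 model differences. Correlations used 100000 resamples. The fits were tested on simulated data. Alternatives were other moderation, weights, normalization, filters, limits and leaving out each animal.

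The genes, lists and tests were chosen with earlier results of these data known. The text names all 10 genes, the 5 most like Rfx5 or Cd74, the 5 neighbors on each side of Rfx5, and up to 3 examples per list with the lowest P. No replicate numbers pair trisomic with euploid animals. A further list result is not reported here.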

Additional observations from a re-analysis of the deposited data

Results flagged for a closer look

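In 26 of 240 groups of 5 to 7 animals, 1 animal stood apart from the others of its group by Dixon's criterion, where chance gives about 1 in 20. For Rfx5, these were the lowest euploid values in Dp16 forebrain (7.52), Dp16 hippocampus (7.12) and Ts1Cje cortex (7.30), the lowest trisomic values in Dp16 hippocampus (6.96) and Ts65Dn cortex (7.00), and the highest trisomic value in Ts65Dn hippocampus (7.67). The Dp16 forebrain embryo with the low Rfx5 value, Eupm13, also had the lowest Rfxank (7.67), the highest Ciita (6.32) and the highest Cd74 (6.08) of its group.

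For Rfxank, the lowest trisomic value in Dp16 cortex (7.39) and the lowest euploid value in Dp16 hippocampus (7.31) stood apart. For Rfxap, these were the lowest trisomic value in Ts65Dn hippocampus (7.33) and the lowest euploid values in Ts1Cje forebrain (9.55) and Ts1Cje cerebellum (7.59). For Cd74, they were the highest trisomic value in Dp16 forebrain (6.16) and the lowest in Ts65Dn forebrain (5.00).

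Among the class II chains, H2-Aa was low in 1 euploid Ts1Cje forebrain (5.89). H2-Eb1 was high in 1 trisomic Dp16 cerebellum (6.40) and low in 1 euploid Dp16 hippocampus (5.72). H2-DMb1 stood apart in 7 groups. Its trisomic values were low in Dp16 cortex (3.46), Dp16 hippocampus (3.52) and Ts1Cje cerebellum (4.06), and high in Ts65Dn hippocampus (6.17) and Ts1Cje cortex (5.68). Its euploid values were low in Ts65Dn hippocampus (4.41) and Ts1Cje forebrain (6.82).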

How the results depend on the processing

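Of the 10 genes in 12 tables, 2 differences were called, both of Rfx5 in the tables that chose it. The count was 6 under the rule for marginally dysregulated genes (unadjusted P under 0.05 with FC above 1.2 or below 0.8; 1.56% of all tests), 2 of them values that chose a gene. It was 5 with array weights (0.316% of all tests), all of Rfx5 and 2 in the choosing tables, and 2 to 3 on leaving out 1 animal. For the adult averages, 2 were called, 1 at an FDR of 5%, and 1 to 3 on leaving out 1 animal. With no replicate block, 2 averages were called. Differences between regions and models stayed at 0 calls under all alternatives run. For the correlations, 4 in place of 7 passed when values replaced deviations. Of the alternative values of Rfx5, 301 kept direction and side of the limit, 8 lost and 14 gained a call, and none reversed. Other limits, rules, tests or adjustments leave the log2 change as it was, so that they could not reverse it. Calls gained or lost include those from a changed limit or rule. Of 123 for other genes, 120 kept direction and side. The 3 gained calls were Cd74 and H2-Aa in Dp16 cerebellum and H2-DMa in Ts65Dn forebrain, all under the rule for marginally dysregulated genes. Why calls moved under the other alternatives was not tested.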
